A study of Saccharomyces cerevisiae with 12 samples.

Results

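Cells of budding yeast (Saccharomyces cerevisiae) that lack the kinase Slt2 were compared with and without arsenate, on 6 of the 12 arrays of the study. These were the 3 arrays of slt2-deficient cells treated with 100 µM sodium arsenate for 2 h and the 3 arrays of untreated slt2-deficient cells (0 min), taken from the genotype and treatment given in the labels. Both groups were in the BY4741 background, a haploid strain of mating type a with LEU2, URA3 and MET17 deleted and HIS3 deleted in part, and grew exponentially in rich medium (YEPD) at 30 °C. The other 6 arrays, of wild-type BY4741 cells in the same 2 conditions, are used only where the genotypes are set side by side. Each array measured total RNA of 1 sample on an Affymetrix yeast expression array. The replicates are called independent, with no mention of separate cultures, and the p-values therefore reflect the scatter of these samples alone, which may be partly technical. The treated cells had been in culture for 2 h longer than untreated cells, so arsenate and time cannot be told apart. How the strain was made deficient in slt2, and whether it is 1 clone, is not stated in the labels.

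Arsenate resembles phosphate and enters yeast through phosphate carriers. Inside the cell it is reduced to arsenite by Arr2, with glutathione as a source of electrons, and arsenite is pumped out by Arr3 or moved into the vacuole as a glutathione conjugate by Ycf1. The transcription factor Arr1 (also called Yap8) turns on ARR2 and ARR3, and its relative Yap1 turns on genes of redox defence. Glutathione contains cysteine, so its synthesis draws on sulfate assimilation. Slt2 is the last kinase of the cell wall integrity cascade, which responds to wall damage and activates wall genes through the factor Rlm1. BY4741 also lacks MET17, whose enzyme joins sulfide to O-acetylhomoserine, so these cells cannot make methionine from sulfate and take it from the medium.

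Levels are log2 signals of a gene's probe set, given per array, and changes are log2 fold changes, arsenate minus untreated. A gene is called when its p from limma, fitted to the 6 arrays and adjusted over 5449 genes, is under 0.05. Replicate arrays were close: the SD between replicates had a median over genes of 0.08 without and 0.07 with arsenate, and arrays of 1 group correlated across genes at 0.9958 to 0.9979. Untreated array 2 had the lowest median log2 signal over the tested genes, 10.03, where the other 5 arrays lay between 10.13 and 10.16. SLT2 itself read 5.79, 5.60 and 5.28 in untreated and 5.60, 5.81 and 5.22 in treated cells. LEU2, URA3 and MET17, which are deleted in BY4741, read between 3.74 and 5.47 on the same arrays, and SLT2 was at or just above that range on all 6. As a sign of RNA quality, the 3' minus 5' log2 signal of 7 control transcripts had a mean of 1.02, 1.13 and 1.09 on the untreated arrays and 0.93, 0.93 and 1.04 on the treated ones. The part of this small difference in the results was not tested.

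Most transcripts moved little. The median log2 fold change over all genes was 0.03, with quartiles at -0.04 and 0.12. Called higher were 104 genes (1.91% of those tested) and called lower 30 (0.551%), 134 or 2.46% together, and all of these had groups that did not overlap. Groups did not overlap upward for 15.3% of all genes and downward for 7.27%. Of the called genes 20 were higher and 1 was lower by at least 1 log2 unit, while 36 and 15 differed by under 0.5 units. The median of the called rises was 0.57 and that of the called falls -0.48.

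These counts changed with the scaling and when any 1 array was left out. With each array centred on its median, 158 genes were higher and 84 lower (65.3% of the calls were rises, against 77.6% as deposited). After quantile normalization 187 were higher and 167 lower (52.8%). Leaving out any 1 array also lowered the number of rises. Each such run had fewer arrays, so here and below a lost call need not point to the array left out. Without untreated arrays 1, 2 and 3 in turn the counts were 73 and 16, 67 and 40, and 32 and 9, and without treated arrays 1, 2 and 3 they were 44 and 9, 34 and 12, and 61 and 18. In all 6 such runs 29 genes kept their call, 22 higher and 7 lower. They were ARR2, ARR3, FRM2, HBN1, ZPS1, ZRT1, ZAP1, YNL134C, YML131W, GTT2, OPT1, ATR1, DDR48, AAD4, MET3, MET10, MET14, PHO5, GSC2, ADE12, PLB1 and WTM1 among the rises, and FRE7, FMP16, TIR1, GND2, MFA1, FSH1 and YIL082W-A among the falls. The other 105 called genes lost their call in at least 1 run, with a highest adjusted p between 0.0527 and 0.18.

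**Figure D1:**
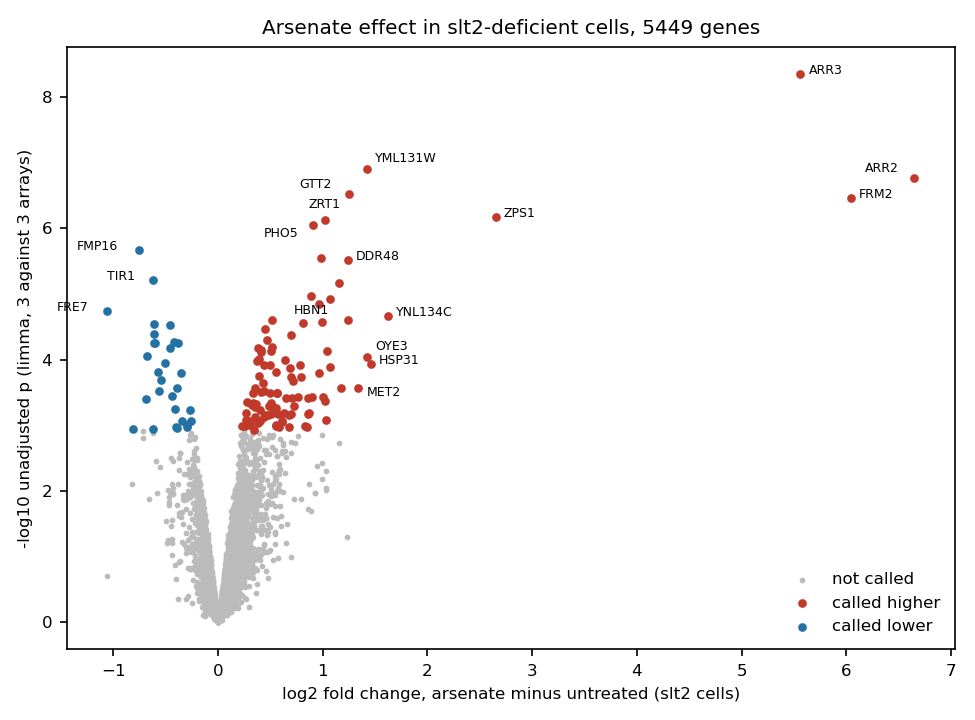
Log2 fold change of each of the 5449 genes, arsenate minus untreated in slt2 cells (x axis), against the -log10 of its unadjusted p from limma (y axis). ARR2, FRM2 and ARR3 lie beyond 5 log2 units, ZPS1 at 2.65, and the farthest called fall, FRE7, at -1.06.

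The genes of arsenic handling held 2 of the 3 largest rises. ARR2, the arsenate reductase gene (locus YPR200C), read 6.18, 4.95 and 5.91 on the untreated arrays and 12.37, 12.23 and 12.38 on the treated ones. The treated arrays lay together, far above every untreated one, while untreated array 2 was within the range of deleted genes. With untreated values below 5.47, the highest value of a deleted gene, raised to it, the rise was at least 88.8-fold (log2 fold change 6.65, SE 0.30, adjusted p = 0.000313). ARR3, the arsenite exporter gene (YPR201W), read 6.56, 6.06 and 6.47 without and 11.85, 11.82 and 12.09 with arsenate, a 47.1-fold rise (log2 fold change 5.56, SE 0.14, adjusted p = 2.44e-05). The regulator gene ARR1 (YPR199C) read 10.08, 9.99 and 10.01 without arsenate and 10.42, 10.33 and 10.37 with it. The rise of ARR1 of 0.35 (SE 0.05, adjusted p = 0.023) was small beside those of ARR2 and ARR3. In the R64 reference assembly the 3 genes are neighbours, with ARR2 and ARR3 transcribed away from each other.

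YCF1, the vacuolar pump gene, read 12.14, 12.05 and 12.08 without and 12.34, 12.39 and 12.36 with arsenate. The rise of YCF1 of 0.27 (adjusted p = 0.0414) was called, but not in any run that left out 1 array (adjusted p up to 0.162), and the call of ARR1 was lost without untreated array 3 or any treated array (up to 0.107). Of the 11 measured genes of this list 4 rose, and the other 7 were not called (background 1.91% higher and 0.551% lower). FPS1, which encodes the glycerol channel that lets arsenite in, had a log2 fold change of -0.04. The phosphate carrier genes PHO84, PHO87, PHO89, PHO90 and PHO91 had values of 0.09, -0.08, 0.22, 0.01 and 0.12, and GTO1, a glutathione transferase gene, one of 0.26. The adjusted p of the 5 carrier genes lay between 0.382 and 0.946. The list median of 0.22 compares with 0.03 for all genes, and after quantile normalization 0.10 compares with -0.02.

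Of the 8 measured genes of the Yap family of transcription factors, ARR1, already counted above, was the called one (background 2.46% in either direction). YAP1 itself had a log2 fold change of -0.20 (adjusted p = 0.241), with treated arrays below untreated ones. CAD1, CIN5, YAP3, YAP5, YAP6 and YAP7 lay between -0.16 and 0.15.

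FRM2, which encodes a nitroreductase-like protein, had the second largest rise. It read 8.25, 7.01 and 8.01 on the untreated and 13.90, 13.70 and 13.81 on the treated arrays, a 66-fold rise (log2 fold change 6.04, SE 0.30, adjusted p = 0.000379). Its relative HBN1 rose by less, from 8.67, 8.40 and 8.72 to 9.77, 9.70 and 10.04 (log2 fold change 1.24, SE 0.12, adjusted p = 0.00673). The groups did not overlap for either gene. The pair lies side by side on the same strand in the reference assembly, and the next gene beyond HBN1, FUS1 of mating cell fusion, was called in the other direction (-0.68). In all, 6 neighbouring pairs of called genes were found, 3 of them on the same side of 0. Those 3 were HBN1 with FRM2, ARR1 with ARR2 and ARR2 with ARR3. The number of pairs expected from position alone was not computed.

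**Figure D2:**
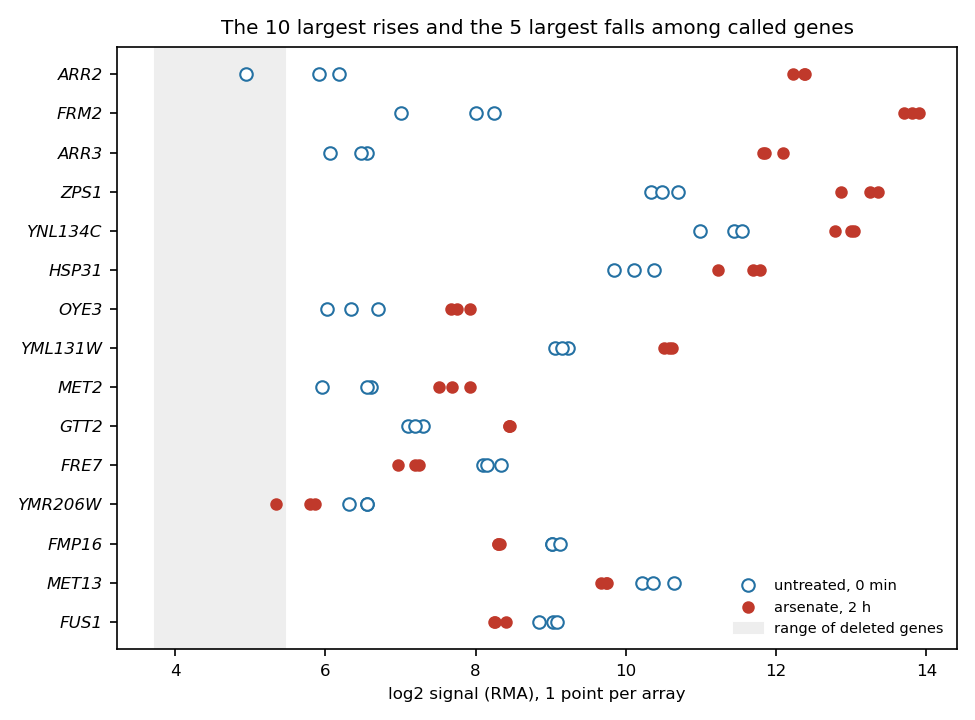
Log2 signal on each of the 6 slt2 arrays (x axis) for the 10 largest rises and the 5 largest falls among called genes, with open circles for untreated and filled circles for treated arrays and a grey band for the range of LEU2, URA3 and MET17 (3.74 to 5.47). Treated and untreated arrays are apart for all 15 genes, and the band is reached by ARR2 on 1 untreated and by YMR206W on 1 treated array.

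Enzymes that reduce aldehydes, quinones and methylglyoxal formed a further set. Of 16 measured genes 5 rose and 0 fell (background 1.91% higher), with a list median of 0.20. YNL134C, an alcohol dehydrogenase-like gene, rose from 10.99, 11.44 and 11.55 to 12.78, 13.00 and 13.04 (3.06-fold, adjusted p = 0.00657). HSP31, a glyoxalase of the DJ-1 family, rose from 9.84, 10.11 and 10.37 to 11.23, 11.69 and 11.78 (log2 fold change 1.46, adjusted p = 0.0135). OYE3, an old yellow enzyme that uses NADPH, rose from 6.70, 6.02 and 6.34 to 7.67, 7.75 and 7.92 (1.42, adjusted p = 0.012). In each of these the lowest treated array lay well above the highest untreated one. GRE2, a methylglyoxal reductase, rose by 1.17 (adjusted p = 0.023) and YPR1, an aldo-keto reductase, by 0.38 (adjusted p = 0.0104).

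The close relatives of these genes showed smaller values. OYE2, the major old yellow enzyme, had a log2 fold change of 0.22 (adjusted p = 0.0538), and ADH6, an NADPH-dependent alcohol dehydrogenase, one of 0.24 (0.056), both with groups that did not overlap. The glyoxalase genes GLO1, GLO2 and GLO4 had -0.08, 0.05 and 0.13. Of 6 measured aryl-alcohol dehydrogenase genes 2 rose and 0 fell (background 1.91% and 0.551%). AAD6 rose by 1.04 (SE 0.12, adjusted p = 0.0105) and AAD4 by 0.98 (SE 0.07, adjusted p = 0.00148). AAD3, YPL088W, AAD14 and AAD10 had 0.31, 0.30, 0.25 and -0.07 and were not called. Genes of this family are nearly identical in sequence, so signal may be shared between their probe sets. YML131W, a gene of a predicted oxidoreductase that was in no list, rose from 9.23, 9.06 and 9.15 to 10.51, 10.61 and 10.57 (log2 fold change 1.42, SE 0.06, adjusted p = 0.000313). The calls of HSP31, OYE3, GRE2, YPR1 and AAD6 were lost without 1 or more single arrays (adjusted p up to 0.0867). The arrays were treated array 2 for HSP31, untreated array 3 or treated array 2 for OYE3 and AAD6, these or treated array 3 for GRE2, and untreated array 3 or treated array 1 for YPR1.

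Glutathione genes held several rises. Of 26 measured genes 5 rose and 0 fell (background 1.91% and 0.551%), with a median of 0.13. GTT2, a glutathione transferase gene, read 7.30, 7.10 and 7.20 without and 8.46, 8.44 and 8.44 with arsenate (2.37-fold, SE 0.06 on the log2 scale, adjusted p = 0.000379). The treated arrays were almost equal. GTT1, a second transferase gene, rose by 0.71 (adjusted p = 0.0271) and ECM4, a transferase of the omega class, by 0.39 (adjusted p = 0.0173). The transferase genes GTO1 and GTO3 and the related URE2 had 0.26, 0.27 and 0.00 and were not called. OPT1, whose product imports glutathione, rose from 10.28, 10.03 and 10.25 to 10.96, 10.94 and 11.09 (log2 fold change 0.81, SE 0.08, adjusted p = 0.00673). GSH1, the rate-limiting step of glutathione synthesis, rose by 0.44 (adjusted p = 0.0135), while GSH2, the second step, had 0.09 and GLR1, glutathione reductase, 0.25 (adjusted p = 0.615 and 0.0746). The glutaredoxin genes lay between -0.13 for GRX6 and 0.37 for GRX8, with none called. GTT2 and OPT1 kept their calls without any 1 array. GSH1 lost its call without untreated array 3 or treated array 1 or 2, ECM4 without untreated array 3 or treated array 2 or 3, and GTT1 without any array other than untreated array 3 (adjusted p up to 0.101).

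Thioredoxin and peroxide defence showed few calls (background 1.91% higher and 0.551% lower). Of 13 thioredoxin and peroxiredoxin genes DOT5, a nuclear thiol peroxidase gene, rose (0.26, adjusted p = 0.0452). TRX2, TRR1 and TSA1 had log2 fold changes of 0.04, 0.00 and -0.06, and SRX1, sulfiredoxin, -0.11. The largest value was that of PRX1, the mitochondrial peroxiredoxin gene (0.46, adjusted p = 0.0693). Of 6 superoxide dismutase and catalase genes CCS1, which loads copper into Sod1, rose by 0.52 (adjusted p = 0.0104) and CTT1, cytosolic catalase, fell by 0.57 (adjusted p = 0.0158). SOD1, SOD2, CTA1 and CCP1 had 0.03, 0.22, -0.14 and 0.03 and were not called. The call of DOT5 was lost in each of the 6 runs without 1 array (adjusted p up to 0.18), that of CCS1 without untreated array 3 or treated array 1 or 2 and that of CTT1 without untreated array 3 or treated array 1 or 3. The sign of the median of these lists turned with the scaling (thioredoxins 0.04 as deposited and -0.03 after quantile normalization, dismutases and catalases 0.03 and -0.01 with centred arrays).

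Drug efflux genes added 5 rises and 0 falls among 22 (background 1.91% and 0.551%), with a median of 0.22, or 0.11 after quantile normalization. ATR1, a pump of the major facilitator family, rose from 9.42, 9.26 and 9.39 to 10.68, 10.52 and 10.36 (2.24-fold, SE 0.09 on the log2 scale, adjusted p = 0.00282). TPO1 of polyamine export, FLR1 of fluconazole and diazaborine resistance and AQR1 rose by 0.83, 0.64 and 0.51 (adjusted p = 0.0452, 0.0129 and 0.0304). YCF1 is the remaining call. ATR1 kept its call without any 1 array. FLR1 lost it without untreated array 3 or treated array 1 or 2, TPO1 without any array other than treated array 1 and AQR1 without any other than treated array 2 (adjusted p up to 0.155). The largest uncalled values were those of TPO4 and RSB1, at 0.99 and 0.73 (adjusted p = 0.121 and 0.16), both with groups that did not overlap. The ABC transporter genes PDR5, SNQ2 and YOR1 had 0.06, 0.01 and -0.04.

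Several genes that take up, activate and reduce sulfate rose. Of 11 measured genes 5 rose and 0 fell (background 1.91% and 0.551%), and the median was 0.49. One of the 11 is MET17, which these cells lack, and without it 10 of 10 lay above 0 with a median of 0.51. MET3, ATP sulfurylase, which starts the pathway, read 8.62, 8.37 and 8.58 without and 9.50, 9.53 and 9.73 with arsenate (2.1-fold, SE 0.09 on the log2 scale, adjusted p = 0.00434). MET14, the kinase of the next step, rose by 0.70 (SE 0.07, adjusted p = 0.00854) and MET16, the reductase after it, by 0.49 (adjusted p = 0.0307). MET10, a subunit of sulfite reductase, rose from 9.26, 9.06 and 9.03 to 9.95, 10.10 and 10.25 (log2 fold change 0.99, SE 0.10, adjusted p = 0.00673). The groups were apart for each of these. MET5, the other subunit of sulfite reductase, had 0.52 and missed the threshold (adjusted p = 0.0559), with groups that did not overlap. Of the 2 sulfate permease genes SUL2 rose by 0.55 (adjusted p = 0.0158), and SUL1 had 0.48 (adjusted p = 0.24). MET1 and MET8, which make the haem cofactor of sulfite reductase, and MET22 lay between 0.10 and 0.12 and were not called.

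In methionine synthesis and transsulfuration the picture differed. Of 22 measured genes 1 rose and 2 fell (background 1.91% and 0.551%), and the median was 0.04. MET2, which makes O-acetylhomoserine, rose from 6.61, 5.96 and 6.56 to 7.52, 7.68 and 7.93 (log2 fold change 1.34, SE 0.19, adjusted p = 0.023). MET13, a methylenetetrahydrofolate reductase gene that supplies the methyl group of methionine, fell from 10.64, 10.22 and 10.36 to 9.75, 9.67 and 9.73 (-0.69, SE 0.11, adjusted p = 0.0277). SAM2, S-adenosylmethionine synthetase, fell by 0.27 (adjusted p = 0.0334), whereas its paralog SAM1 had 0.15 and MET6, methionine synthase, -0.24, neither called. CYS3 and CYS4, which lead from homocysteine to cysteine, had 0.08 and 0.10. Higher but also uncalled were MUP3 at 1.23 (adjusted p = 0.301), whose groups overlapped, and STR3 at 0.59 (adjusted p = 0.056), whose groups did not. The 6 regulator genes of the pathway included no call, with MET32 highest at 0.52 (adjusted p = 0.107), MET30 lowest at -0.14 and MET4 at -0.01. MET3, MET10 and MET14 kept their calls without any 1 array. MET2, MET13, MET16 and SUL2 lost theirs without untreated array 3 or any treated array, and SAM2 without any array other than untreated array 2 (adjusted p up to 0.139).

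**Figure D3:**
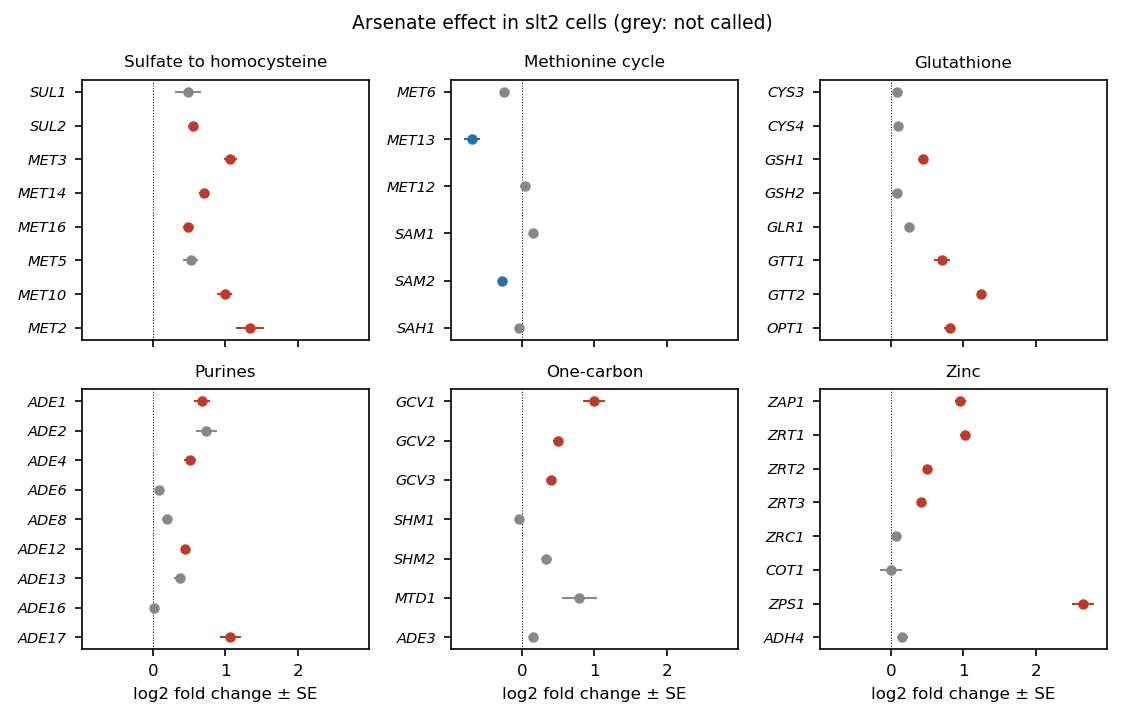
Log2 fold change (x axis, arsenate minus untreated in slt2 cells) with SE for genes of 6 pathways, red for called rises, blue for called falls and grey for genes not called. Sulfate activation and reduction lies to the right of 0, MET13 and SAM2 to the left, and ZPS1 at 2.65 is the farthest of the zinc genes.

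Several genes of zinc homeostasis rose. The list of copper and zinc genes held 5 called rises and 0 called falls among 19 (background 1.91% and 0.551%), and all 5 belong to zinc. ZPS1, a zinc-regulated gene of a secreted protein, had the fourth largest rise of all, from 10.34, 10.48 and 10.70 to 12.87, 13.25 and 13.36 (6.29-fold, SE 0.15 on the log2 scale, adjusted p = 0.000583). ZRT1, the high-affinity zinc transporter gene, read 12.72, 12.65 and 12.76 without and 13.69, 13.69 and 13.81 with arsenate (2.03-fold, SE 0.06, adjusted p = 0.000583). ZAP1, the zinc-sensing activator of these genes, rose from 9.12, 8.84 and 9.10 to 9.92, 9.99 and 10.02 (log2 fold change 0.96, SE 0.08, adjusted p = 0.00477). All 3 calls were kept without any 1 array. ZRT2, the low-affinity transporter gene, and ZRT3, which releases zinc from the vacuole, rose by 0.50 and 0.41 (adjusted p = 0.0135 and 0.0105). Both calls were lost in 2 of 6 runs (ZRT2 without treated array 1 or 3, ZRT3 without untreated array 3 or treated array 2).

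No other gene of the copper and zinc list was called. The largest values were those of VEL1 and CUP2, the latter an activator of metallothionein genes, at 0.51 and 0.40 (adjusted p = 0.148 and 0.0803), and the groups of both did not overlap. IZH4 was lowest at -0.31. The vacuolar zinc importer genes ZRC1 and COT1 had 0.07 and 0.00, and ADH4, a zinc-responsive alcohol dehydrogenase gene, 0.16. The metallothionein genes CUP1-1 and CRS5 had 0.04 and 0.10 and the copper transporter gene CTR1 -0.24, none called. Of 32 genes of iron uptake and metalloreductases 1 was called (background 2.46% in either direction), FRE7, a reductase gene controlled by copper. FRE7 read 8.34, 8.10 and 8.15 without and 7.25, 7.19 and 6.97 with arsenate, the largest fall of all called genes (log2 fold change -1.06, SE 0.10, adjusted p = 0.00576). The iron permease genes FET3 and FTR1 had -0.16 and -0.12.

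Purine synthesis and one-carbon genes held 7 called rises and 0 falls among 23 genes (background 1.91% and 0.551%), with a median of 0.19. The groups of 16 genes did not overlap upward (background 15.3%). ADE17, which closes the purine ring of inosine monophosphate, read 11.30, 11.46 and 11.48 without and 12.60, 12.68 and 12.17 with arsenate (2.1-fold, SE 0.14 on the log2 scale, adjusted p = 0.0143). GCV1, a subunit of the glycine cleavage complex, read 10.68, 10.68 and 10.79 and then 11.83, 11.95 and 11.35 (log2 fold change 1.0, SE 0.15, adjusted p = 0.0268). For both genes treated array 3 was the lowest treated one, though still above every untreated array. ADE1, ADE4 and ADE12 rose by 0.68, 0.51 and 0.45 and the other cleavage subunit genes GCV2 and GCV3 by 0.50 and 0.40 (adjusted p from 0.00738 to 0.0414). ADE2 and MTD1 had larger values of 0.74 and 0.79 but were not called (adjusted p = 0.0607 and 0.158). ADE16, the paralog of ADE17, had 0.02 and the regulator gene BAS1 0.10. Without any 1 array ADE12 kept its call. ADE17 lost its call without untreated array 3 or treated array 1 or 2, and ADE1, ADE4, GCV1 and GCV2 lost theirs without any array other than treated array 3, and GCV3 without any other than untreated array 3 (adjusted p up to 0.145).

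Phosphate genes showed 2 called rises and 0 falls among 24 (background 1.91% and 0.551%), with a median of 0.10. PHO5, the secreted acid phosphatase gene that is a standard marker of phosphate starvation, read 10.37, 10.37 and 10.45 without and 11.36, 11.25 and 11.31 with arsenate (1.88-fold, SE 0.05 on the log2 scale, adjusted p = 0.000599). The groups were far apart beside their spread, and the call was kept without any 1 array. PHM7, a membrane protein gene, rose by 0.70 (adjusted p = 0.0361), a call lost without any array other than untreated array 1. The other starvation targets were not called: SPL2 had 0.09, VTC1, VTC2, VTC3 and VTC4 between 0.02 and 0.08, and PHO11, a relative of PHO5, 0.31.

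Genes of the cell wall are of interest here because the kinase that controls many of them is missing. Of 27 wall proteins and targets of the pathway 3 rose and 0 fell (background 1.91% and 0.551%), and the median was 0.04. The 27 include SLT2 itself, and without it the median of the other 26 was also 0.04. GSC2 (also called FKS2), a stress-induced glucan synthase gene, read 10.25, 10 and 10.07 without and 11.06, 10.97 and 10.96 with arsenate (log2 fold change 0.89, SE 0.08, adjusted p = 0.00421). SED1, a major wall glycoprotein gene, and ECM4 rose by 0.35 and 0.39 (adjusted p = 0.0379 and 0.0173). CWP1, a mannoprotein gene, had 1.03 but was not called (adjusted p = 0.137), with groups that did not overlap. KDX1, PIR3, SPI1 and PST1 had 0.47, 0.40, 0.35 and 0.30, also uncalled, and the groups of all but PIR3 did not overlap. The rest of the list lay between -0.11 for CHS3 and 0.13 for FBP26, PRM5 and CRH1 among them at -0.06 and 0.08. Of the 26 genes of the kinase cascade MTL1, a wall sensor gene, rose by 0.68 (adjusted p = 0.0452), and BCK1, MKK1, MKK2 and PKC1 lay between -0.09 and 0.07. Among glucan and chitin synthesis genes KNH1, a relative of KRE9 in glucan synthesis, rose by 0.55, while FKS1, the main glucan synthase gene, had -0.04. Of 9 TIR and DAN mannoprotein genes TIR1, a cold-shock wall protein gene, fell from 11.57, 11.50 and 11.48 to 10.89, 10.92 and 10.86 (-0.62, SE 0.05, adjusted p = 0.0028). The other 8 lay between -0.21 for TIR2 and 0.26 for DAN4. GSC2 and TIR1 kept their calls without any 1 array. SED1 lost its call in each of the 6 runs, KNH1 without untreated array 3 or any treated array, MTL1 without untreated array 2 or 3 or treated array 1 or 2, and ECM4 without untreated array 3 or treated array 2 or 3.

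**Figure D4:**
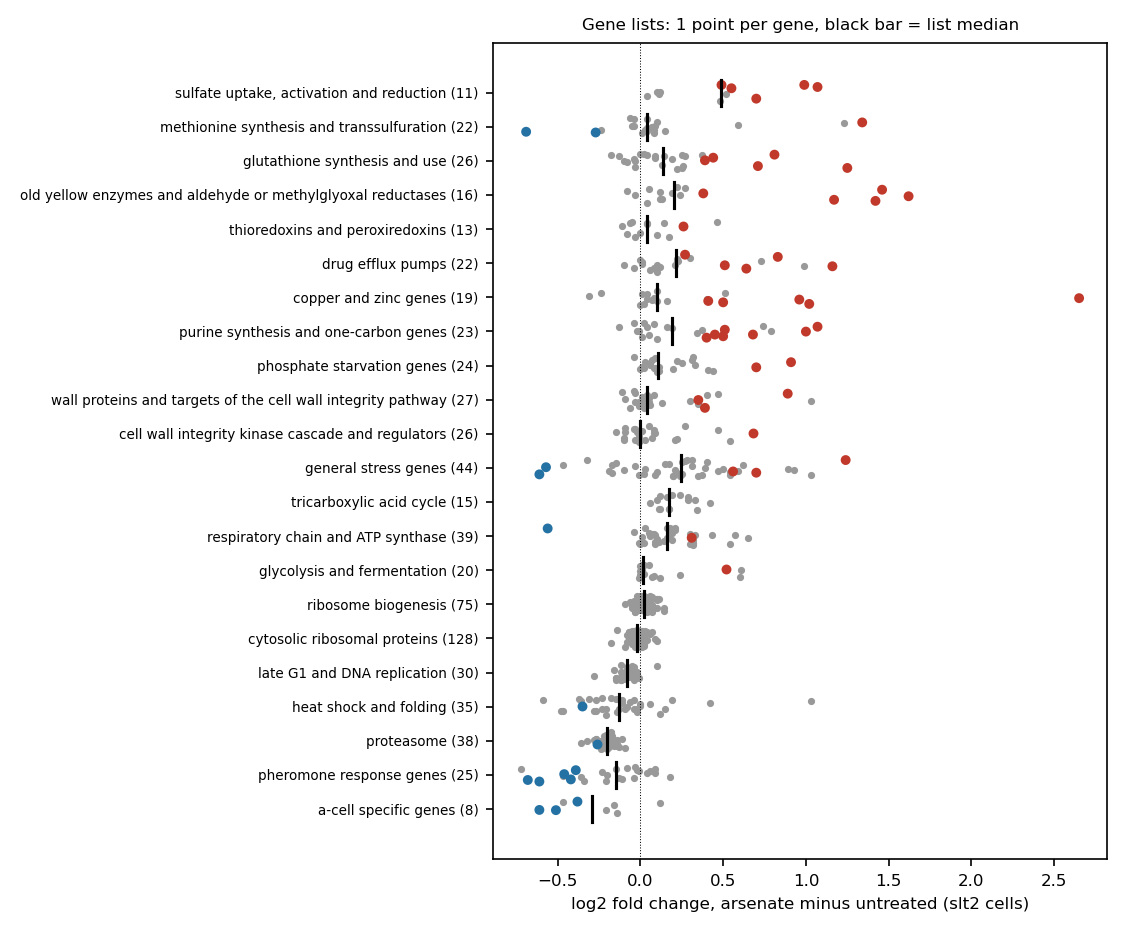
Log2 fold change (x axis) of every measured member of 22 gene lists, with the number of members in brackets, red and blue points for called rises and falls and a black bar for the list median. Sulfate assimilation has the highest of these medians (0.49) and a-cell genes the lowest (-0.30), while ribosome biogenesis and ribosomal protein genes lie close to 0.

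Some genes of mating fell. Of 25 pheromone response genes 5 fell and 0 rose (background 0.551% lower), with a median of -0.15. After quantile normalization 12 were called lower, with a median of -0.24. FUS1 read 9.03, 8.84 and 9.08 without and 8.24, 8.41 and 8.26 with arsenate (-0.68, SE 0.08, adjusted p = 0.0119). AGA1, an agglutinin anchor gene, fell by 0.61, SST2, which switches pheromone signalling off, by 0.46, FAR1 of cell cycle arrest by 0.42 and KAR4, a factor of nuclear fusion genes, by 0.39 (adjusted p from 0.00966 to 0.023). FIG1 had -0.72 and lay just outside the threshold (adjusted p = 0.0505). Of the 25 genes 5 lay above 0, with PRM8 highest at 0.18. Of 8 genes specific to a cells 3 fell and 0 rose (background 0.551% and 1.91%), and after quantile normalization 6 were called lower. MFA1, an a-factor gene, fell from 13.00, 12.86 and 13.06 to 12.40, 12.37 and 12.33 (-0.61, SE 0.06, adjusted p = 0.00851), and AGA2 and BAR1 fell by 0.51 and 0.38 (adjusted p = 0.0135 and 0.00966). STE2, the receptor gene, had -0.21, STE6 -0.14, MFA2 -0.16, ASG7 -0.47 and AXL1, a protease gene of a-factor maturation, 0.12, none called. The groups of AXL1 did not overlap, with the treated arrays higher. None of the 18 signalling components was called, with STE2 lowest and BEM1 highest at 0.17. Of the 8 called genes only MFA1 kept its call without any 1 array. The others lost it without untreated array 3 (FUS1, FAR1, BAR1, SST2, KAR4), without treated array 1 (FUS1, FAR1, BAR1, AGA2, KAR4), without treated array 2 (AGA1, AGA2, KAR4) or without untreated array 1 or treated array 3 (KAR4), with adjusted p up to 0.0948.

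As deposited, genes of protein breakdown and folding held few calls (background 1.91% higher and 0.551% lower). All 38 genes of the proteasome and its partners had a log2 fold change below 0, from -0.36 for UFD1 to -0.09 for RPN5, and the groups did not overlap downward for 36 (background 7.27%). PUP1, a catalytic core subunit, was the called one, at 12.36, 12.29 and 12.36 without and 12.07, 12.05 and 12.10 with arsenate (-0.26, SE 0.05, adjusted p = 0.0414). With centred arrays 14 of the 38 were called lower, and 18 after quantile normalization. Of 35 heat shock and folding genes 27 lay below 0, with a median of -0.13, and AHA1, the activator of Hsp90, fell by 0.35 (adjusted p = 0.0158). With centred arrays 7 of the 35 were called lower, and 8 after quantile normalization, beside the same 84 and 167 over all genes. BTN2 had the lowest value of this list (-0.59) and HSP12 the highest (1.03), neither called. The calls of PUP1 and AHA1 were lost without any array other than untreated array 2 (adjusted p up to 0.167).

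General stress genes moved in both directions. Of 44 genes 3 rose and 2 fell (background 1.91% and 0.551%), with a median of 0.24. DDR48, a stress protein gene, rose from 11.06, 11.19 and 11.17 to 12.27, 12.56 and 12.32 (2.37-fold, SE 0.09 on the log2 scale, adjusted p = 0.00148), and HOR7 and PHM7 by 0.56 and 0.70. CTT1 read 9.31, 9.37 and 9.48 without and 8.77, 8.93 and 8.73 with arsenate. GND2, the minor 6-phosphogluconate dehydrogenase, fell from 8.72, 8.58 and 8.68 to 8.04, 8.12 and 7.99 (-0.61, SE 0.06, adjusted p = 0.00673). HSP12, GPH1 and DDR2 had values of 1.03, 0.93 and 0.89 but were not called (adjusted p from 0.144 to 0.194). DDR48 and GND2 kept their calls without any 1 array, whereas HOR7 lost its call without any array other than untreated array 3. The treated arrays differed for this list. Against the mean of the untreated arrays its median was 0.20, 0.48 and 0.06 on treated arrays 1, 2 and 3, and -0.12 to 0.05 on the untreated ones.

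In central metabolism few genes were called. Of 11 genes of the pentose phosphate pathway 0 rose and 2 fell, GND2 and TKL2 (background 1.91% higher and 0.551% lower). TKL2, the minor transketolase gene, fell by 0.62 (adjusted p = 0.0475), whereas TKL1 had 0.01, and GND1 beside GND2 had 0.13. Their neighbours in the pathway, ZWF1, SOL4 and NQM1, had -0.07, -0.19 and 0.42, none called. NDE2, a mitochondrial external NADH dehydrogenase gene, fell by 0.56 (adjusted p = 0.0244) and its paralog NDE1 rose by 0.31 (adjusted p = 0.0452). ENO1, an enolase gene, rose by 0.52 (adjusted p = 0.0309) while ENO2 had 0.05, and 1 of 20 genes of glycolysis and fermentation was called in all. The 15 measured genes of the tricarboxylic acid cycle all lay above 0, from 0.06 for LPD1 to 0.42 for CIT1, with none called. Of 39 respiratory genes 36 lay above 0, with a median of 0.16. Over all genes the median was itself above 0, at 0.03, with quartiles at -0.04 and 0.12. The calls of TKL2, NDE1, NDE2 and ENO1 were lost in at least 5 of the 6 runs that left out 1 array.

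Genes of growth held no calls (background 2.46% in either direction). None of 128 cytosolic ribosomal protein genes was called, with values from -0.18 for RPS9A to 0.10 for RPL41A, and none of 75 ribosome biogenesis genes, from -0.09 for NOP16 to 0.14 for DBP2. Late G1 and DNA replication genes had a median of -0.08, 29 of 30 below 0 and none called, from -0.28 for CLB6 to 0.10 for RAD53. In the DNA damage response, HUG1, an inhibitor of ribonucleotide reductase, rose from 7.14, 6.79 and 7.20 to 7.89, 7.95 and 8.16 (log2 fold change 0.96, SE 0.12, adjusted p = 0.0158), and RNR2, a subunit of that reductase, by 0.37 (adjusted p = 0.0132). The call of HUG1 was lost without treated array 2 or 3 and that of RNR2 without untreated array 3 or treated array 1. RAD54 and DUN1 had 0.03 and -0.01.

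Calls in the remaining lists were few (background 1.91% higher and 0.551% lower). ADR1, an activator of glucose-repressed genes, rose by 0.69 (1 of 29 in its list), GPP2 of glycerol synthesis by 0.76 (1 of 24), ARO10 of aromatic amino acid breakdown by 0.65 (1 of 48), SPS4 of sporulation by 0.70 (1 of 25) and FAA2, a fatty acid activating enzyme, by 0.56 (1 of 26). PTR2, a peptide transporter gene, and BAP3, an amino acid permease gene, rose by 0.86 and 0.32 (2 of 32), and BIO2, biotin synthase, fell by 0.41 (1 of 27). Their adjusted p lay between 0.0146 for ADR1 and 0.0452 for FAA2. BIO2, BAP3 and FAA2 lost their calls in each of the 6 runs without 1 array. GPP2 and PTR2 lost theirs without any array other than treated array 1, ARO10 without any other than untreated array 3, ADR1 without untreated array 3 or treated array 1 or 2 and SPS4 without untreated array 3 or treated array 2 or 3.

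Further lists had no called member (background 2.46% in either direction), and their extremes were small. Chaperonin genes ran from -0.08 for CCT8 to 0.01 for CCT6, genes of the unfolded protein response from -0.15 for KAR2 to 0.12 for MPD1 and histone genes from -0.07 for HHO1 to 0.03 for HTB2. Genes of RNA polymerases I and III lay between -0.11 for RPC53 and 0.10 for RPC34, those of ergosterol synthesis between -0.16 for ERG3 and 0.20 for UPC2 and those of heme metabolism between -0.01 for HMX1 and 0.10 for HEM12. Later cell cycle genes ran from -0.25 for CDC6 to 0.21 for CLB1. Autophagy genes reached farther, from -0.08 for ATG14 to 0.49 for ATG41, with a median of 0.16. Genes specific to alpha cells, which these a cells should not express, ran from -0.15 for AFB1 to 0.23 for MF(ALPHA)1.

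Of the 134 called genes 54 were in none of the 51 lists, 43 higher and 11 lower. Among the rises were YHR140W (1.03), RGS2, a regulator of G protein signalling in glucose sensing (1.02), GSP2, a Ran GTPase gene (0.90), RTC3 (0.87) and the vacuolar aminopeptidase gene APE1 (0.86). UGA1 of 4-aminobutyrate use rose by 0.56, CAR2 of arginine use by 0.51 and PUT2 of proline use by 0.44 (adjusted p = 0.025, 0.0105 and 0.0244), while PUT1, the step before PUT2, had 0.56 and was not called (adjusted p = 0.146). DRE2, IBA57 and ISA2, which act in iron-sulfur protein assembly, rose by 0.72, 0.55 and 0.35 (adjusted p = 0.0192, 0.0452 and 0.032), while the scaffold genes ISU1 and ISU2 had -0.02 and 0.01. These genes were picked after their values were seen and stand for no list. FMP16, a mitochondrial protein gene, fell from 9.02, 9.02 and 9.12 to 8.30, 8.30 and 8.33 (-0.75, SE 0.05, adjusted p = 0.00131), and YMR206W from 6.32, 6.55 and 6.56 to 5.80, 5.86 and 5.34 (-0.81, adjusted p = 0.0467). Treated array 3 of YMR206W lay within the range of deleted genes, and with it raised to the top of that range the fall was at least 1.7-fold. YIL082W-A, which encodes a retrotransposon protein, fell by 0.60 (adjusted p = 0.00966). ATF2, an alcohol acetyltransferase gene, fell by 0.54, FSH1, a serine hydrolase gene, by 0.46, CUZ1, a partner of Cdc48, by 0.39 and RAD52 of recombination repair by 0.30. FMP16, FSH1 and YIL082W-A kept their calls without any 1 array. Of the other genes of this paragraph CAR2 lost its call in 2 of the 6 runs (treated array 1 or 2), DRE2 in 2 (untreated array 3 or treated array 1), PUT2 in all 6, and the rest in 4 or 5.

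The arsenate effect in slt2 cells was set beside that in wild-type cells with the difference of the effects, slt2 minus wild type, fitted by limma to all 12 arrays. No gene passed (0.0% of 5449, lowest adjusted p = 0.711), while 28 had an unadjusted p under 0.05, 5 of them among the 134 called genes. The wild-type arrays varied more, with a median SD of a gene of 0.21 untreated and 0.49 with arsenate. Among the called rises 89 of 104 had a higher mean with arsenate in wild type too, and among the called falls 20 of 30 a lower one. The same shares over all genes were not computed, so these counts are not read as agreement between the genotypes. ARR2 read 5.94, 4.74 and 5.15 in untreated and 10.88, 10.63 and 12.24 in treated wild type (difference of effects 0.68, SE 0.66), so it was high on all 6 treated arrays of the series. FRM2 read 7.75, 6.47 and 7.48 without and 7.55, 10.84 and 13.80 with arsenate, where wild-type treated array 1 stayed at the untreated level and array 3 reached the level of slt2 cells (difference 2.55, SE 1.69).

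Several called falls had a higher mean in treated wild type. CTT1 read 7.81, 10.50 and 9.44 in untreated and 13.79, 12.50 and 8.96 in treated wild type (difference of effects -3.07, SE 1.48, adjusted p = 0.711). FMP16 read 8.84, 10.20 and 9.29 and then 14.34, 12.74 and 8.37 (difference -3.12, SE 1.64). In both genes wild-type treated arrays 1 and 2 were high and array 3 was below the untreated mean. FRE7 had the smallest unadjusted p of the called genes for the difference (-2.57, SE 0.76, unadjusted p = 0.00687, adjusted p = 0.711). None of these differences passed, which does not show that the genotypes respond alike.

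**Figure D5:**
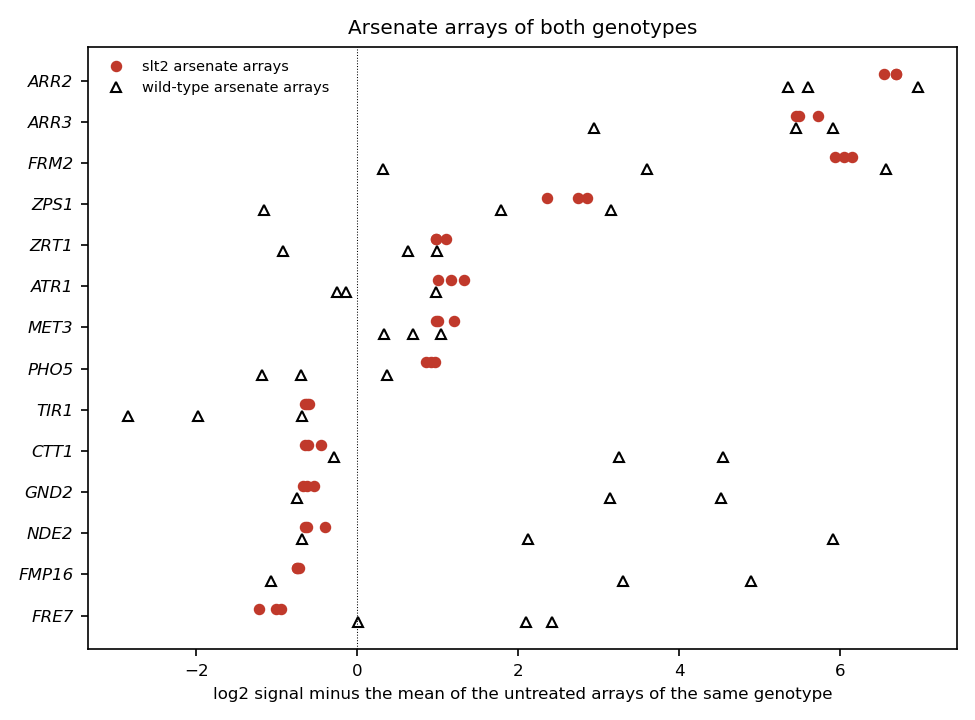
Log2 signal of each treated array minus the mean of the untreated arrays of its genotype (x axis) for 14 genes, with filled circles for slt2 and open triangles for wild type. The 3 slt2 arrays span at most 0.49 units (ZPS1), while the wild-type arrays of CTT1, GND2, NDE2, FMP16 and FRM2 span 4.83 to 6.59.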

How the data were processed

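Total RNA of 12 yeast samples was hybridised to Affymetrix arrays, 3 arrays in each of 4 groups. Per the submitters' processing notes, the deposited log2 values were made by the authors with RMA in Affymetrix Expression Console, which corrects background, normalizes arrays and summarises probes. Versions, settings and whether 1 run held all arrays are not stated there. RMA draws arrays together, so small uniform shifts can be lost.

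Of 5814 probe sets 5498 have 1 gene symbol, 0 several and 316 none (98 of these are controls). All 5498 matched the R64 reference by gene number. Where a gene had several probe sets (47 genes) the brightest was kept, leaving 5449 genes. Limma 3.58.1 in R 4.3.3 (lmFit, eBayes, two-sided, Benjamini-Hochberg over 5449 genes, threshold 0.05) was fitted to the 6 slt2 arrays without a replicate term, and to 12 arrays for the difference of effects. It was run on simulated data with independent noise in each gene and no array effects. That run does not bear on array effects in these data. Figures used matplotlib 3.10.9. The number of arrays limits the precision.

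The comparison, the 51 gene lists and the tests were chosen with earlier results of these data known, so list counts and medians are descriptions. List members with no tested probe set were not analysed here. Any called gene could be named, as could every member of a list of up to 12 genes and the lowest and highest member of a list without calls. The 20 largest rises, the 15 largest falls, SLT2, the strain markers and fixed arsenic genes always have values. Other uncalled genes named were chosen after their values were seen. The numbers of the replicates were not taken as pairing, because the submitters' text names none. Deviations of same-numbered arrays from their group means correlated at 0.392, 0.051 and 0.234. Those of differently numbered arrays correlated at -0.281 to 0.089, so these values do not show that the arrays were unpaired.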

Additional observations from a re-analysis of the deposited data

Results flagged for a closer look

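The 316 probe sets that carry no gene symbol took no part in the gene comparisons above. They were fitted with all other probe sets to the same 6 arrays, with p-values adjusted over all of them. After arsenate in slt2 cells 9 of the 316 were called higher and 0 lower. Each of the 9 is given because its treated mean exceeded its untreated mean past the threshold in data left out of the gene comparisons. Control probe sets for the middle and the 5' part of TDH1, a glyceraldehyde-3-phosphate dehydrogenase gene, had log2 fold changes of 0.89 and 0.84 (limma adjusted p = 0.0474 and 0.0456). The gene's own probe set had 0.61 and was not called (adjusted p = 0.0694). Its 3' control set had 0.66 and a further middle set 0.03, neither called (adjusted p = 0.0564 and 0.788). The 5' and 3' control sets of TDH1 also entered the RNA quality means given above. The other 7 have no gene name here, and their log2 fold changes were 0.59, 0.54, 0.52, 0.50, 0.37, 0.27 and 0.26.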

How the results depend on the processing

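No called gene changed direction in any of the 15 refits, whereas the number of calls moved widely. With centred arrays 158 genes were higher and 84 lower, after quantile normalization 187 and 167, with limma-trend 255 and 112 and with array weights 742 and 639. A size of at least 1 log2 unit left 20 and 1, and the 12-array model 2 and 0. Robust eBayes, a filter on dim genes and testing all 5498 probe sets with a gene symbol gave 103 to 112 higher and 30 to 34 lower. Leaving out 1 array gave 32 to 73 higher and 9 to 40 lower. With the replicate number as a block 23 genes were higher and 5 lower, and 108 of the 134 calls were lost. In their deviations from the group means, untreated arrays 1 and 3 correlated best with their own number (0.392 and 0.234). Untreated array 2 correlated better with treated array 3 (0.089) than with its own number (0.051). The difference of effects between genotypes called 0 genes as deposited, with centred or quantile-normalised arrays and with the replicate block. Array weights put untreated array 2 at 0.212 and untreated array 3 at 5.18. The median of 15 of the 51 gene lists changed sign with centred or quantile-normalised arrays. With 3 arrays a group, small changes in dim genes are poorly resolved.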
